A study of Mus musculus with 20 samples.

Results

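The CG-rich autosomal microRNA promoters are 433 of the 22480 promoter probes of a table of sperm DNA methylation in mice. A probe ran from 2000 bp upstream to 200 bp downstream of the 5′ end of a gene, and members were the probes of genes whose symbol has the form of a microRNA gene, on chromosomes 1 to 19, with at least 30 CG sites in the table. The rule left out a pair of chromosome segments and several named clusters, and of 923 autosomal microRNA symbols with a probe, 433 were members, 437 had fewer CG sites and 53 had enough but were left out. After the same segments and clusters were set aside, 413 CG-poor microRNA promoters remained for comparison. The rule for members used no measured level, but it was set with earlier results of these data known. According to the paper, probes had been kept only with a minimum of aligned read-pairs in several samples. The table came from MBD-sequencing of sperm of 20 male F1 mice, 10 of the strain C57BL/6J and 10 of the strain FVB/N, with 5 DEHP libraries and 5 control libraries in each strain. Pregnant females of each strain were given di(2-ethylhexyl)phthalate (DEHP, a plasticizer) in corn oil by mouth at 300 mg/kg/day from gestation day 9 to 19, or corn oil alone, and sperm of their male offspring was taken at 8 weeks of age from epididymis and vas deferens. Neither the litters of the males nor values of single libraries were given in the sources used here. DEHP and control DNA had been submitted separately for library preparation and sequencing, each time with 10 samples of both strains, so that treatment and submission cannot be told apart in any value below.

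MicroRNAs are short RNAs that pair with messenger RNAs through their seed, the bases 2 to 8 of the mature strand, and lower the amount of protein made from them. A mature microRNA is cut out of a hairpin that is often copied as part of a longer transcript, so the 5′ end of a microRNA gene in an annotation is usually the end of the hairpin and not a place where transcription begins. In sperm, most CG sites of gene bodies and of intergenic DNA are methylated, whereas CG islands at gene starts are mostly not.

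The probe thus often covers DNA beside a hairpin and not the start of its transcript. Of the 374 members whose hairpin could be placed on the same chromosome from the RefSeq microRNA table (GRCm38.p6, the same assembly as mm10), 371 had the hairpin's 5′ end within 50 bp of the reference point of the probe. The 5′ end lay in an intron of a protein-coding gene in 285 of the 433 members, in an exon in 53 and outside such genes in 95.

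The mature strands of members with DEHP libraries below control libraries in both strains are shown here with their seed in capitals, as given by RefSeq, 5′ to 3′, to show which microRNAs these genes make. The levels were measured on the DNA of the probes and not on these strands. Mir5107 is also among them and is named only.
miR-7658-5p: uGUGGGCGuggcggugcugg
miR-7658-3p: aCCACCUUccucacccacgcu
miR-130a-5p: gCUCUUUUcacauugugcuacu
miR-130a-3p: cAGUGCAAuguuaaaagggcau
miR-6948-5p: aGUUCAGAcaggacugugacac
miR-6948-3p: uGUCCUUCcugucugaccaca
miR-1306-5p: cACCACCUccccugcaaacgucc
miR-1306-3p: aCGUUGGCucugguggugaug
miR-7014-5p: uUGGGUGCuguggaagggacag
miR-7014-3p: cCUCUUUCauaccaaccacag
miR-3087-5p: cAGGGCAGggcaagaguugag
miR-3087-3p: uAACUCACugucauguccuca
miR-6945-5p: uCCUGGGAggggcagccccugg
miR-6945-3p: uCUGAGCUcugcccuucccau
miR-7115-5p: uCGGGGGUuguggugccgaauugu
miR-7115-3p: aCUUGGUCcccugcccccacag
miR-7211-5p: uCUUUCCCucugccacuccacc
miR-6905-3p: aAAUAACCuuaucugcccgau
These genes lay on 9 chromosomes with Mir5107 included.

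The DNA under the probes is shown for 5 members as the 300 bases richest in CG, with each CG in capitals and on the strand of the gene, to let the CG-dense and the CG-scattered kind be compared. The stretch of Mir7658 (chr4:156231647-156231946, GRCm38.p6, minus strand) held 19 CG sites and 213 coding bases of Plekhn1. The stretch of Mir1905 (chr3:88536402-88536701, minus strand) held 32 CG sites and lay wholly in coding sequence of Mex3a. The stretch of Mir130a (chr2:84742798-84743097, minus strand) held 17 CG sites and no exon. The stretches of Mir193a (chr11:79711439-79711738, plus strand) and of Mir9-3 (chr7:79504960-79505259, plus strand) each held 44 CG sites and no protein-coding exon.
Mir7658: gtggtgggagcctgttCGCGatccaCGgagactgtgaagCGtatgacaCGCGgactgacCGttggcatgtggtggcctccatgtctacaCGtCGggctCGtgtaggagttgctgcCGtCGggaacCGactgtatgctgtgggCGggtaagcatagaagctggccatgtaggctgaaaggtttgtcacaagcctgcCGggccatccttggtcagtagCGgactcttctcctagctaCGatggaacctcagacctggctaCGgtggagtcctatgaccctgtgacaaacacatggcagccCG
Mir1905: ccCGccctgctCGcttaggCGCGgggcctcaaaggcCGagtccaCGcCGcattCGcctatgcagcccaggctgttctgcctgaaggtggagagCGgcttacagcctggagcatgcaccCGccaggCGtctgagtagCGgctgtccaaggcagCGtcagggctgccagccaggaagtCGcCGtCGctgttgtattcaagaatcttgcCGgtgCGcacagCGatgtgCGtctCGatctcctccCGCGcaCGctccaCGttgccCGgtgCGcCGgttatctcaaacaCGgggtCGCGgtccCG
Mir130a: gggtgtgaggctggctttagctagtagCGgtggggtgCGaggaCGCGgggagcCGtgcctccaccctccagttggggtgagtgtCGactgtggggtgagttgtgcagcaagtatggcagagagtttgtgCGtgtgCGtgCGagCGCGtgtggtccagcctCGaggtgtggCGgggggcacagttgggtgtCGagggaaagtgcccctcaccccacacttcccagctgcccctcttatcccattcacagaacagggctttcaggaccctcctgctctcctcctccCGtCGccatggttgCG
Mir193a: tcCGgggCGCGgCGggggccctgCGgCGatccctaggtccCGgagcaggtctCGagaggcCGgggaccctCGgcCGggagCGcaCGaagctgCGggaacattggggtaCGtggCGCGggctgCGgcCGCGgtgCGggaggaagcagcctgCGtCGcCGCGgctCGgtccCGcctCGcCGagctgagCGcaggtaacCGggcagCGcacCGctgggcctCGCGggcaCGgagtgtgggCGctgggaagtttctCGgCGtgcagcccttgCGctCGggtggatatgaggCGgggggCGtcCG
Mir9-3: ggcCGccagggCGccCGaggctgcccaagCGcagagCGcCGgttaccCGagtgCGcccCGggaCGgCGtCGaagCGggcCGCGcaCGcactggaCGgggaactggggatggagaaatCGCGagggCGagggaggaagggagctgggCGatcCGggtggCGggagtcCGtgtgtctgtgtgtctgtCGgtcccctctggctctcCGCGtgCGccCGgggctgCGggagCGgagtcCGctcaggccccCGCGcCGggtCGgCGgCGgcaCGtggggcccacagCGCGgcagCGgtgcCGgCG
In controls of both strains the first 3 of these probes had means of at least 28.4 normalized reads, and the last 2 of at most 7.1. Over all 433 members the richest 300 bases held 6 to 61 CG sites, with a median of 14.

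The number of CG sites in a member ranged from 30 to 249, with a median of 45. By GENCODE annotation, 217 probes covered an exon of a protein-coding gene without its start, 44 lay in introns only, 72 lay outside protein-coding genes, and 100 held the start of a protein-coding gene. The last kind was the richest in CG sites, with a median of 90 against 43 over exons, 36.5 in introns and 42 outside genes. The other promoters with at least 30 CG sites were of another make, since 13473 of 14442 held a protein-coding start. The members fell into 405 separate stretches of DNA, because 53 of them overlapped a neighbor.

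**Figure D1:**
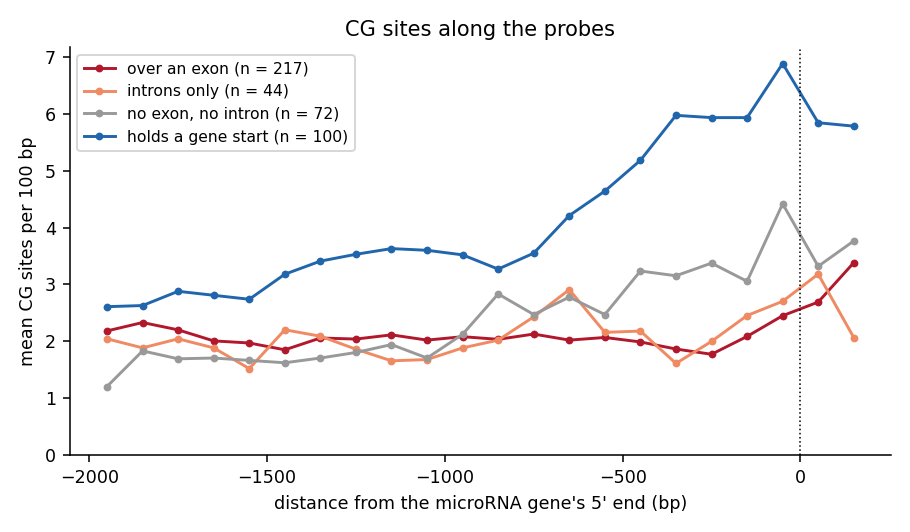
Mean number of CG sites per 100 bp (y axis) against the distance in bp from the microRNA gene's 5′ end (x axis), with 1 line for each of the 4 kinds of probe. Probes that hold the start of a protein-coding gene rise from 2.61 CG sites per 100 bp at the far end, while probes over an exon stay near 2 until the last 200 bp.

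The level of a probe is the number of normalized read-pairs that overlap it. A methyl binding domain pulls down methylated fragments, so a level rises with methylation and with CG density and is no percentage of methylated sites. Members had high levels. The median of the authors' means over members was 35.6 normalized reads for control and 15.9 for DEHP in C57BL/6J, and 20.5 for control and 16.7 for DEHP in FVB/N. The median of the other promoters with at least 30 CG sites was between 2.8 and 4.7 in the 4 groups. The median of the CG-poor microRNA promoters lay between them, at 7.3 to 12.8. Members were 1.93% of the probes but held 7.33% of the summed means in C57BL/6J controls and 8.03% in FVB/N controls. After DEHP they held 4.24% and 4.57%. A share of the sum does not depend on how a whole group was scaled, and it was lower with DEHP in both strains. No error can be given for it without values of single libraries.

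Probes over an exon carried the highest levels and probes with a gene start the lowest. The median in C57BL/6J controls was 54.9 over exons, 29.75 in introns, 15.4 outside genes and 4.7 at gene starts. In FVB/N controls the same 4 medians were 36.2, 15.75, 8.7 and 3.45. The order was thus the same in both strains, and the quartile ranges of exon probes and of start probes did not overlap in either (34.7 to 76.7 against 2.1 to 19.175 in C57BL/6J controls, and 21.5 to 52.8 against 1.4 to 10.375 in FVB/N controls). The level did not rise throughout with the number of CG sites. In controls of both strains it was higher at 40 to 59 than at 30 to 39 CG sites, and lower from 60 on. The median in C57BL/6J controls was 42.0 at 30 to 39 CG sites, 61.2 at 40 to 59, 8.1 at 60 to 99 and 3.55 at 100 or more. The rank correlation between CG sites and level over the 433 members was -0.39 in C57BL/6J controls and -0.35 in FVB/N controls, as a description of probes that share libraries.

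**Figure D2:**
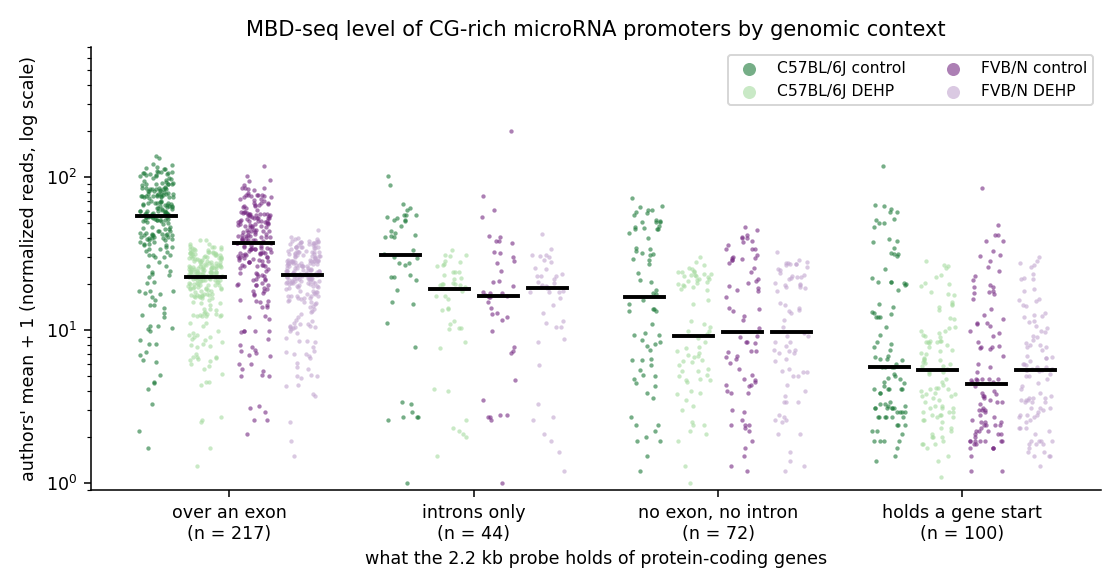
Level of each member (y axis, the authors' mean plus 1, in normalized reads on a log scale) by what the probe holds of protein-coding genes (x axis), in the 4 groups. Black bars are medians, which in C57BL/6J controls stand at 54.9 over exons and at 4.7 at gene starts before 1 is added.

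The highest mean over the 4 groups belonged to Mir466d, at 83.2 normalized reads, in an intron of Camk1d, a calcium-dependent kinase gene. Mir7226 in Ptprf, a receptor phosphatase gene, followed at 81.3. Mir3087 in Abca2, a lipid transporter gene, stood at 74.6, Mir7005 in Lama5, a laminin gene, at 69.0, and Mir7037 in Ints1 at 65.8. Of these 5 members, 4 covered coding exons. The lowest were Mir1907 and Mir1900, both at 0.65, then Mir7655 at 0.675 and Mir193a and Mir688, both at 0.725. These 5 held 85 to 164 CG sites, against 41 to 72 in the highest 5. Mir1247, with the most CG sites of all members (249), had 1.7 ± 1.4 normalized reads in C57BL/6J controls (the authors' mean and SD over 5 libraries, as in all values with ± here). Mirlet7i, with 178, had 8.3 ± 3.8, and Mir6935, with 177 (as many as Mir7687) over the start of the actin gene Actg1, had 19.7 ± 6.7.

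The main comparison was DEHP against control within a strain. In C57BL/6J, 387 of the 433 members (89.4%) had a lower mean with DEHP, against 54.8% of all promoters. In FVB/N 311 members (71.8%) had, against 28.7% of all promoters. The change is given as the log2 ratio of means after adding 1 to each, DEHP over control. Its median was -1.04 in C57BL/6J, with quartiles of -1.47 and -0.55, and -0.40 in FVB/N, with quartiles of -0.86 and 0.09. Over all promoters the median was -0.10 and 0.35, so the members stood 0.93 and 0.75 lower than the table as a whole on the log2 scale. The other promoters with at least 30 CG sites had medians of -0.18 and 0.25, and the CG-poor microRNA promoters of -0.20 and 0.46. The level of the table as a whole also differed between groups, since the means of all promoters summed to 226268 for control and 153283 for DEHP in C57BL/6J, and to 141092 and 150346 in FVB/N. When the groups were scaled to equal sums, the members' medians came to -0.51 in C57BL/6J and -0.49 in FVB/N, while those of all promoters were 0.33 and 0.29.

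Without values of single libraries, a difference was called only where the libraries of both groups could not overlap. No library of 5 can lie further than 1.79 sample SDs from its mean, and where the ranges so given stayed apart, every DEHP library was on the same side of every control library. A two-sided exact permutation test on ranks then gives 0.00794, the smallest p that 5 against 5 allows, before any adjustment over promoters. The counts are lower limits. In C57BL/6J, DEHP libraries lay below control libraries at 37 members (8.55%), against 1.42% of all promoters, and above them at 0 members, against 0.249%. In FVB/N they lay below at 44 members (10.2%), against 0.859% of all promoters, and above at 1 member, against 0.774%. Both strains together gave 11 members below (2.54%), against 0.173% of all promoters, and 0 members above, against 0% of all promoters. These 11 were 29.7% of the 37 and 25% of the 44. No promoter of the table was separated in opposite directions in the strains. The C57BL/6J count rested on the scaling of the groups. With equal sums it fell to 2 members below, Mir130a and Mir1306, and 1 above, Mir8098, while the background moved to 0.129% below and 1.02% above. The FVB/N count rested on it too. It was 50 with equal sums, 119 with equal medians and 109 with equal medians over the other promoters with at least 30 CG sites, while the background was 1.04%, 3.25% and 2.80%.

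**Figure D3:**
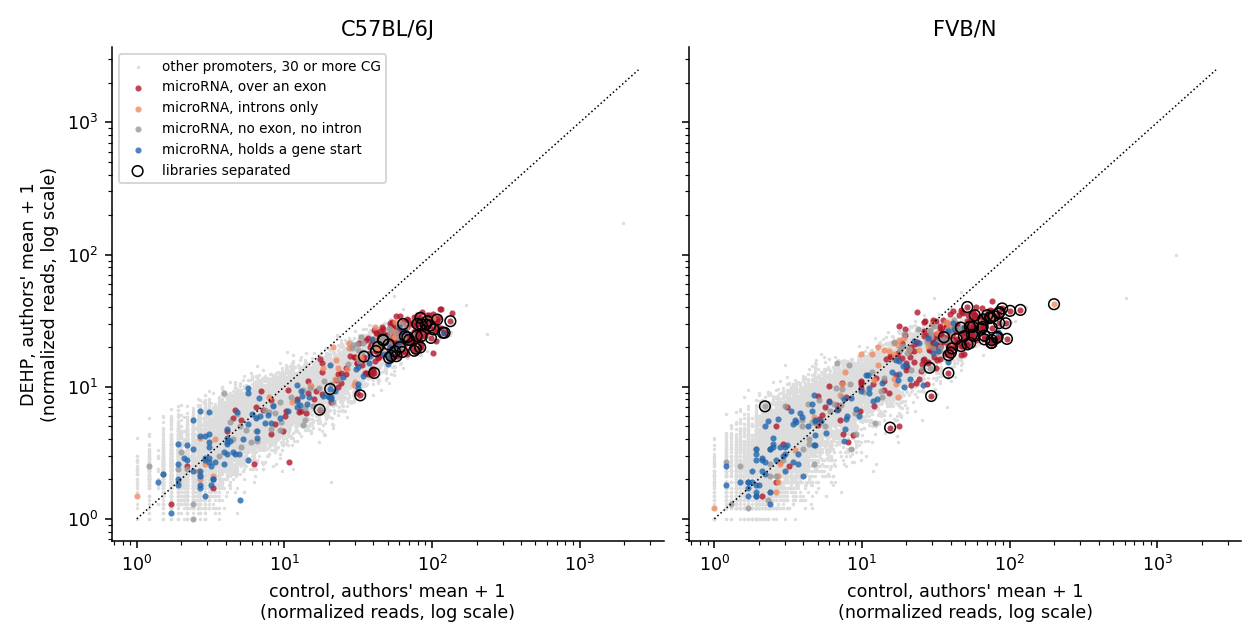
Level of each promoter with DEHP (y axis) against control (x axis) in both strains, as the authors' mean plus 1 in normalized reads on log scales. Members are colored by what the probe holds, other promoters with at least 30 CG sites are gray, rings mark separated members (37 in C57BL/6J, and 44 below and 1 above in FVB/N), and the dotted line marks equal levels.

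The members that passed had high control levels. Among the 37 in C57BL/6J the control mean was 16.3 to 132 normalized reads with a median of 67, and the fold decrease of means plus 1 was 2.04 to 4.75. Among the 44 in FVB/N the control mean was 14.5 to 198.8 with a median of 65, and the fold decrease was 1.29 to 4.75. Every one of the 44 also had a lower DEHP mean in C57BL/6J, and 36 of the 37 had one in FVB/N. Among all members 89.4% and 71.8% had one. Over the 433 members the log2 ratios of both strains had a Pearson correlation of 0.73 and a Spearman correlation of 0.77, as a description of probes that share their libraries and their submissions. Ratios were below 0 in both strains at 299 members and above 0 in both at 31. At 86 members the ratio was below 0 in C57BL/6J but above 0 in FVB/N, and at 9 the reverse held. These counts were not taken over all promoters.

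Mir130a and Mir1306 were separated in both strains under each of the scalings tried. Mir130a, known for a role in blood vessel growth, has its probe at chr2:84740979-84743178 with 43 CG sites. It had 31.6 ± 6.2 normalized reads in C57BL/6J controls and 7.6 ± 2.6 with DEHP, and 28.4 ± 3.0 in FVB/N controls and 7.5 ± 1.1 with DEHP. The control libraries could not lie below 20.4 and 22.9, and the DEHP libraries not above 12.4 and 9.61. C57BL/6J showed a fold decrease of 3.79 and FVB/N of 3.46. Mir1306 lies in a coding exon of Dgcr8, the gene of a protein that helps cut microRNA hairpins out of their transcripts, and its probe (chr16:18284118-18286317) has 32 CG sites. It had 39.5 ± 6.8 normalized reads in C57BL/6J controls and 11.7 ± 1.9 with DEHP. In FVB/N it had 37.5 ± 9.4 in controls and 11.7 ± 3.2 with DEHP. Control and DEHP libraries thus stood apart in both strains, and the levels of the strains lay within 1 SD of each other in both treatments at this gene.

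The other 9 members of this set had higher control levels. Mir7658 in an exon of Plekhn1 fell the most, from 120.5 ± 39.8 to 24.6 ± 12.5 normalized reads in C57BL/6J and from 94.9 ± 10.6 to 22.0 ± 3.8 in FVB/N, which is a fold decrease of 4.75 and 4.17. Mir3087 in Abca2 went from 132 ± 42.4 to 30.3 ± 13.3 in C57BL/6J and from 99.7 ± 21.1 to 36.5 ± 12.5 in FVB/N. Mir6948 in Acin1 went from 77.6 ± 16.8 to 23.2 ± 5.8 in C57BL/6J and from 74.2 ± 13.8 to 20.4 ± 6.5 in FVB/N. Controls and DEHP groups of these 3 did not overlap in C57BL/6J or in FVB/N. Mir6945 in Pdlim7, a gene of the actin cytoskeleton, went from 97.2 ± 27.3 to 22.4 ± 6.4 and from 72.5 ± 12 to 32.0 ± 5.4 in the same order of strains. Mir7115 in Arrb2, the gene of beta-arrestin 2, went from 74.6 ± 15.4 to 17.7 ± 8.6 and from 39 ± 9.3 to 17.1 ± 2.5. Mir5107 in Cd74, the gene of the invariant chain of antigen presentation, went from 76.8 ± 22.4 to 18.4 ± 4.2 and from 53.0 ± 14.0 to 20.4 ± 3.6. At these 3 the fold decrease was larger in C57BL/6J (4.2, 4.04 and 4.01) than in FVB/N (2.23, 2.21 and 2.52), a difference that was not tested and that rested on the scaling. With equal medians their log2 ratios came to -2.14, -2.09 and -2.08 for C57BL/6J and to -1.85, -1.83 and -2.03 for FVB/N. Mir7014 in Ecm1, Mir7211 in Tmcc3 and Mir6905 in Med23 had log2 ratios of -1.92, -1.62 and -1.57 in C57BL/6J and of -1.49, -1.04 and -0.92 in FVB/N. All 11 probes covered an exon of a protein-coding gene, with 10.3% to 53.6% of their bases coding. They held 32 to 71 CG sites, and the hairpin's 5′ end lay in an intron at 7, in an exon at 3 and outside protein-coding genes at 1, Mir130a.

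**Figure D4:**
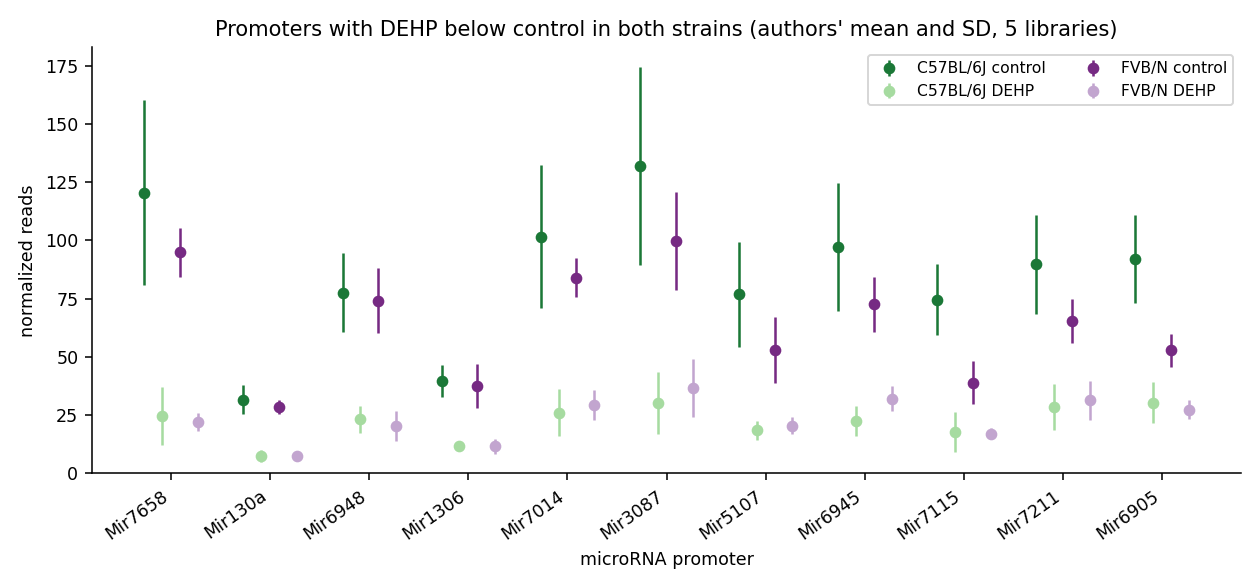
Level of the 11 members with DEHP libraries below control libraries in both strains (x axis), as the authors' mean (point) and SD (bar) in normalized reads over 5 libraries (y axis) in the 4 groups. DEHP means reach from 7.6 to 30.3 in C57BL/6J and from 7.5 to 36.5 in FVB/N, under the control means of 31.6 to 132 and 28.4 to 99.7.

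Some large changes passed in only 1 strain, and whether the strains differ there was not tested. Mir6999 in Dgkz, whose probe holds the start of Gm9821, went from 117.3 ± 35.8 to 24.6 ± 11.7 normalized reads in C57BL/6J, where it passed, and from 83 ± 27.8 to 24.8 ± 7.3 in FVB/N, where the possible ranges overlapped. Mir486, a microRNA of muscle and red blood cells in the ankyrin gene Ank1, went from 82.1 ± 21.4 to 18.8 ± 8.3 in C57BL/6J and from 58.3 ± 18 to 21.7 ± 4.8 in FVB/N and passed likewise in C57BL/6J alone. Both had lower DEHP means in both strains. In FVB/N, Mir466d had the largest fold decrease, 4.75, from 198.8 ± 64.8 to 41.1 ± 5.2. It was the member with the highest control level in FVB/N and had 66.0 ± 20.8 in C57BL/6J controls. Mir7677 in Itpr3, a calcium channel gene, went from 74.6 ± 8.5 to 20.5 ± 5.7 in FVB/N and from 96.6 ± 27.9 to 30.9 ± 12.2 in C57BL/6J. Mir1905 passed in FVB/N, from 80.9 ± 12.4 to 22.4 ± 8.8, and not in C57BL/6J, where the fold was larger (5.65, from 100.2 ± 43.8 to 16.9 ± 8.3) but the control libraries spread more. The single member with DEHP libraries above control libraries was Mir9-3, a gene of the neural microRNA miR-9, in FVB/N. It had 1.2 ± 1.7 normalized reads in FVB/N controls and 6.1 ± 0.6 with DEHP, against 7.1 ± 2.5 and 3.8 ± 2.7 in C57BL/6J. This separation was lost with equal medians, over all or over the other promoters with at least 30 CG sites, and with a bound of 2 SDs.

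Probes over exons made up most of the called members. They were 28 of the 37 in C57BL/6J (75.7%) and 40 of the 44 in FVB/N (90.9%), against 217 of the 433 members. In C57BL/6J their median log2 ratio was -1.36, against -0.74 in FVB/N. Intron probes had medians of -0.91 and -0.11, probes outside genes of -0.81 and -0.17, and probes at gene starts of -0.50 and -0.06. Probes at gene starts gave 2 calls in C57BL/6J but 0 in FVB/N. The order of these medians followed the order of the levels in both strains except for intron probes and probes outside genes in FVB/N.

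The ratio was therefore compared at matched levels. To keep the same libraries out of both measures, members were grouped by their mean level in the other strain. In C57BL/6J the median log2 ratio of members was -0.12 under 3 normalized reads, -0.57 at 3 to 10, -0.99 at 10 to 20, -1.28 at 20 to 40 and -1.64 at 40 or more. The other promoters with at least 30 CG sites gave 0.10, -0.21, -0.87, -1.18 and -1.80 in the same bins. From 10 normalized reads on, the medians of both sets differed by at most 0.16 on the log2 scale, and at lower levels the members' medians were the lower ones. In FVB/N the members gave -0.03, 0.19, -0.18, -0.44 and -0.93, and the others 0.24, 0.46, -0.01, -0.39 and -0.81. The CG-poor microRNA promoters stood above the members at the same levels. Their medians were 0.60, 0.23, -0.55 and -1.13 in C57BL/6J in the bins up to 40 normalized reads, and 0.68, 0.89, 0.35 and -0.06 in FVB/N. The share of called promoters at 40 or more was 22.6% of 62 members and 31.4% of 51 others in C57BL/6J, and 29.2% of 120 members and 20.4% of 157 others in FVB/N. Members stood at high levels more often, with 48.3% at 20 or more normalized reads in FVB/N against 4.68% of the other promoters with at least 30 CG sites. Among members at 20 to 40, 12 of 101 probes over exons and 6 of 22 probes outside genes were called in C57BL/6J. In FVB/N these were 6 of 72 and 0 of 24. Neither the part of exons in the calls nor the part of the level in the members' lower ratios was tested. Whether the lower levels with DEHP belong to the treatment or to the submission cannot be told apart.

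**Figure D5:**
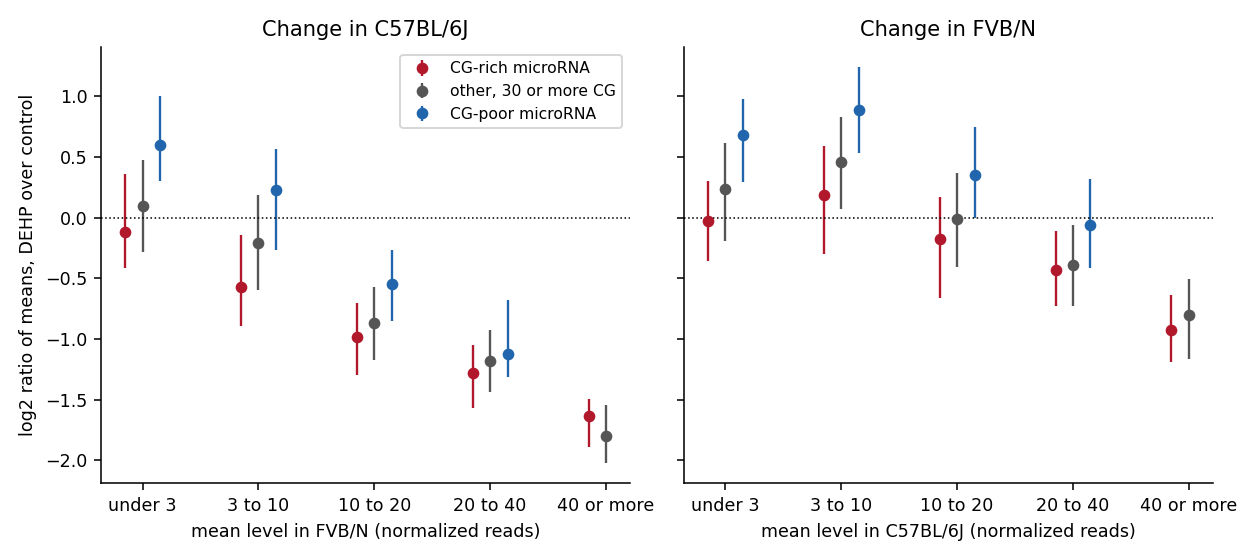
Median log2 ratio of means, DEHP over control (y axis, points, with bars from the lower to the upper quartile), by the mean level in the other strain in normalized reads (x axis, 5 bins of at least 20 promoters). CG-rich microRNA promoters go from -0.12 to -1.64 in C57BL/6J and from -0.03 to -0.93 in FVB/N, and the other promoters with at least 30 CG sites from 0.10 to -1.80 and from 0.24 to -0.81.

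The bound on CG sites was no step in the data. The 36 microRNA promoters with 28 or 29 CG sites had a median of 31.4 normalized reads in C57BL/6J controls and of 18.05 in FVB/N controls, and the 37 members with 30 or 31 had 38.1 and 18.3. Their median log2 ratios were -0.93 and -0.16 just under the bound, and -0.98 and -0.04 just over it. Among members, those with 40 to 59 CG sites had the largest median decreases, -1.33 for C57BL/6J and -0.75 for FVB/N, and also the most calls, 19 and 28 of 146. Members with 100 or more had medians of -0.48 and -0.16, and gave 0 calls and 1 call of 54 (1.85%). Over all promoters 1.42% and 0.859% were called below.

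Lists of microRNAs with a known place in development or metabolism covered a small part of the members. Other members with a known role, such as Mir130a, are in none of them. The lists were drawn up with earlier results of these data known. They are given as descriptions, with the medians of all members, -1.04 and -0.40, to compare. DEHP libraries lay below control libraries at 8.55% and 10.2% of all members, and at 1.42% and 0.859% of all promoters. In FVB/N they lay above at 0.231% of members and 0.774% of all promoters. In lists of 3 to 10 members, counts of 0 or 1 are too small to be set apart from these shares. Of the let-7 family, which holds back cell growth in differentiated tissue, 6 members were found and 0 passed. Mirlet7b had the highest level, 71.8 ± 26.0 normalized reads in C57BL/6J controls and 24.0 ± 8.0 with DEHP, and Mirlet7e the lowest, 1.9 ± 1.3 and 1.6 ± 0.7. The list median was -0.97 for C57BL/6J and -0.26 for FVB/N. Of 10 neural members, 0 passed in C57BL/6J and 1 in FVB/N, Mir9-3. Their levels were low, with a median of 3.35 in C57BL/6J controls, although Mir7-2 stood at 59.6 ± 13.9, and the list medians of the log2 ratio were -0.50 and 0.17. The 3 muscle members had medians of -1.22 and -0.75, and only Mir486 passed. Mir499, in the myosin gene Myh7b, had 8.8 ± 5.0 in C57BL/6J controls and 3.6 ± 1.6 with DEHP.

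Of the 5 members of blood and endothelium, 0 passed in either strain, with median log2 ratios of -1.30 and -0.80. This list does not hold Mir486, which was placed with muscle and passed in C57BL/6J, or Mir130a, which passed in both strains. Mir126a, a microRNA of endothelium over the start of Egfl7, had 63.7 ± 24.8 normalized reads in C57BL/6J controls and 25.2 ± 6.1 with DEHP, and Mir142, a microRNA of blood cells, had 4.1 ± 4.3 and 2.5 ± 0.7. Mir181c had 28.6 ± 14.5 and 9.3 ± 1.1. Of 7 epithelial members, Mir182 passed in C57BL/6J, from 59.5 ± 13.6 to 18.9 ± 7.6, and 0 passed in FVB/N. Its neighbor Mir96 went from 63.7 ± 19.7 to 22.9 ± 11.2, whereas Mir203, a skin microRNA, stood at 10 ± 4.1 and 7.4 ± 2.5. Mir200c, which holds cells in an epithelial state, went from 16.2 ± 8.3 to 8.8 ± 1.6 in C57BL/6J and from 5.8 ± 5.4 to 14.0 ± 2.9 in FVB/N, and neither pair was separated. The list medians were -0.98 and 0.10. All 4 Hox cluster members had low levels, between 5.4 and 12.8 in C57BL/6J controls, and 0 passed in either strain, with medians of -0.46 and -0.01. Mir196a-1 had 12.8 ± 4.1 in C57BL/6J controls and 4.6 ± 2.0 with DEHP, Mir10a had 8.5 ± 2.3 and 4.4 ± 3.1, and Mir196a-2 had 6.2 ± 2.1 and 5.7 ± 2.5.

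Of the 4 members known from the early embryo and the gonad, 0 passed, with medians of -0.92 and -0.23. Mir202, a microRNA of the gonad, had 46.7 ± 21.7 normalized reads in C57BL/6J controls and 21.3 ± 5.1 with DEHP, and Mir290a, of a cluster active in embryonic stem cells, had 2.3 ± 1.1 and 0.7 ± 1.0. Of 8 metabolic and endocrine members, 1 passed in C57BL/6J, the liver microRNA gene Mir122a, from 45.4 ± 6.2 to 21.7 ± 6.4, and 0 passed in FVB/N, where it went from 27.8 ± 3.0 to 26.0 ± 4.3. Mir33, in the sterol regulator gene Srebf2, had the highest level of this list, 100.4 ± 43.4 in C57BL/6J controls and 34.5 ± 18.4 with DEHP. Mir375, a microRNA of pancreatic islets, had 9.7 ± 3.2 and 1.7 ± 1.8. The list medians were -0.96 and -0.26. Of 4 members of the miR-29 and miR-148 families, whose targets include DNA methyltransferase genes, Mir29a passed in C57BL/6J, from 45.8 ± 6.1 to 21.4 ± 6.8, and 0 passed in FVB/N. Its overlapping neighbor Mir29b-1 went from 38.7 ± 6.3 to 19.2 ± 7.6 and did not pass, and Mir148a, with 121 CG sites, stood at 1.7 ± 1.4 and 1.1 ± 1.0. The list medians were -0.90 and -0.18.

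Of the members, 387 were in the RefSeq table with 669 mature strands and 598 seeds, and 113 members shared 58 seeds with at least 1 other. Mir130a shares its 3p seed with Mir130b and Mir130c, but Mir130b, over an annotated protein-coding start, had 1.4 ± 1.3 normalized reads in C57BL/6J controls and 2.4 ± 1.6 with DEHP, and Mir130c, over an exon of Kdelc2, had 9.6 ± 4.9 and 8.5 ± 1.3. Mir9-1 and Mir9-2 make the same mature strands as Mir9-3 and had 1.4 ± 1.4 and 0.2 ± 0.5 in FVB/N controls, and 1.1 ± 0.8 and 1.7 ± 1.3 with DEHP. The let-7 seed was held by 6 members, from Mirlet7e at 1.9 to Mirlet7b at 71.8 in C57BL/6J controls. Mir6945 and its seed mate Mir3474, both over exons, had 97.2 ± 27.3 and 83.7 ± 24.3 in C57BL/6J controls.

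The strains were also compared within each treatment. In controls, C57BL/6J libraries lay above FVB/N libraries at 4 members (0.924%), against 1.06% of all promoters, and below at 0, against 0.0267%. With DEHP, 0 members were separated above, against 0.307% of all promoters, and 0 below, against 0.0311%. As deposited, these shares were no higher than the background. The median log2 ratio of members, C57BL/6J over FVB/N, was 0.53 in controls and -0.07 with DEHP, and 0.54 and 0.04 over all promoters. With equal sums the members' medians were -0.10 and -0.09, and with equal medians -0.16 and -0.17. The 4 members were Mirlet7j (5.4 ± 1.2 against 0.5 ± 0.6 normalized reads), Mirlet7g (21.1 ± 2.8 against 6.7 ± 4.3), Mir7657 (35.6 ± 2.9 against 16.9 ± 6.3) and Mir122a (45.4 ± 6.2 against 27.8 ± 3.0). With equal sums 1 of the 433 members lay above and 2 below, against 0.307% and 0.111% of all promoters. The share below was then higher than the background, but it rested on 2 members. The members with the most variants between the strains were Mir7019 with 52, Mir6896 with 46 and Mir6378 with 42. Mir7019 over the start of Pink1 had 57.8 ± 17.5 in C57BL/6J controls and 18.8 ± 12.5 in FVB/N controls, and Mir6896 in Dst had 74.1 ± 20.7 and 27.7 ± 6.2. Mir6378 had 33.2 ± 6.6 and 20.6 ± 3.7, and none of the 3 was separated. Over members with 10 or more variants the median control ratio was 0.79, against 0.50 without variants. Over the same 65 and 231 members the median DEHP ratio was -0.99 and -1.02 in C57BL/6J.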

How the data were processed

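The authors deposited signal values, for each group a mean and an SD of normalized reads given to 1 decimal, at 22480 probes of 2200 bp. Read-pairs had been aligned onto mm10 with Bowtie 0.12.7, filtered, counted over probes and normalized with edgeR by the authors. Counts of CG sites and of variants are the authors' annotations as deposited. In 9 further columns the authors give log2 fold changes, p-values and FDR of their own comparisons, which were not used here. The paper gives more read-pairs on average, and slightly longer reads, for DEHP libraries than for control libraries. This difference coincides with treatment and submission. Depth of single libraries is unknown.

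Computed here were log2 ratios of means with a pseudocount of 1, and separations of groups from ranges of 1.79 SD around each mean, widened by 0.05 for rounding. A count test or a fit across libraries could not be run. A sample SD was assumed, since SD over mean exceeded 2 at 8, 0, 38 and 2 probes with means of at least 1 in the 4 groups, which an SD with n in place of n - 1 cannot. As a check of the sperm label, 12 promoters of maternally methylated imprints had medians of 3.2 to 4.25 normalized reads, near those of all promoters (3 to 5.3), and 3 of paternally methylated imprints had medians of 5.2 to 25.3. The lists overlapped, with maternal values up to 26.5 and paternal values from 2.4 to 25.8.

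Named members were the 5 largest ratios in each strain and direction among separated members with a mean of at least 3, those separated in both strains, the 5 highest and 5 lowest levels, in each of 9 lists the highest, the lowest and the largest ratio of each strain, the strain comparisons, and the extremes of CG sites and variants. Other genes were named after their values were seen. Members and lists were chosen with earlier results of these data known. Sequence and exons came from GRCm38.p6 and GENCODE M21; the number of CG sites was the same there at 94.2% of members. Python 3.11.15, numpy 2.4.6, pandas 2.3.3, scipy 1.17.1 and matplotlib 3.10.9 were used. Alternatives were other scalings of the groups, pseudocounts of 0.1 and 3, a bound of 2 SDs, filters on means of at least 1 and 3, 1 probe for each overlapping set, no gene starts, and at least 40 CG sites.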

Additional observations from a re-analysis of the deposited data

How the results depend on the processing

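The median log2 ratio of members stayed below 0 in both strains under all alternatives tried, and so did the 17 named members' ratios where these were below 0. Counts of separated members depended on the scaling of the groups and on the bound. DEHP below control in C57BL/6J, 37 as deposited, came to 2 with equal sums, where 0.129% of all promoters were below, against 1.42% as deposited. It came to 16 with a bound of 2 SDs. At 40 or more CG sites it was 23, with 284 members left. DEHP above control in C57BL/6J came to 1 with equal sums, where 1.02% of all promoters were above, against 0.249% as deposited. DEHP below control in FVB/N, 44 as deposited, came to 119 with equal medians and 109 with equal medians over the other promoters with at least 30 CG sites, where 3.25% and 2.80% of all promoters were below, against 0.859% as deposited. The single FVB/N member above came to 0 in these and with a bound of 2 SDs. Members below in both strains, 11 as deposited, came to 5 with 2 SDs and 2 with equal sums. They came to 26 with equal medians and 20 with equal medians over the other promoters. The share of all promoters in both strains, 0.173% as deposited, was not computed under these alternatives, nor was any share with 2 SDs. Whether the members or the whole table moved cannot be told from these counts. C57BL/6J above FVB/N in controls, 4 as deposited, came to 2 with 2 SDs and to 0 at 40 or more CG sites. It came to 1 under each of the 3 scalings, where 0.307%, 0.289% and 0.280% of all promoters were above, against 1.06% as deposited. C57BL/6J below FVB/N came to 2, 3 and 3 of the 433 members under the scalings. The shares of all promoters there were 0.111%, 0.129% and 0.129%, against 0.0267% as deposited. The members' shares were thus higher than the background, on few members. Without gene starts the median level in FVB/N controls was 28.5, and at 40 or more CG sites the medians were 19.55 for control and 8.8 for DEHP in C57BL/6J, and 9.8 for DEHP in FVB/N. The changes without gene starts and at 40 or more CG sites, also those in the counts, come with a different set of members. The start probes left out had a median of 3.45 in FVB/N controls. The members with 30 to 39 CG sites left out had a median of 42.0 in C57BL/6J controls. The cause of the changes under the other alternatives was not tested. Equal sums moved the median ratio of all promoters from -0.10 to 0.33 in C57BL/6J, and equal medians moved it from 0.35 to -0.18 in FVB/N. Relative to all promoters the members' median stood 0.84 to 0.95 lower in C57BL/6J and 0.75 to 0.89 lower in FVB/N. Leaving out single libraries was not run, since only group means and SDs were used. No paired analysis was possible because the values are group means and the labels number no pairs.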

Other observations

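MicroRNA genes are numbered in the order in which they were registered, and members with high numbers were most of the set. The 236 members numbered 5000 or more had a median of 44.5 normalized reads in C57BL/6J controls and 28.65 in FVB/N controls. Members numbered under 1000 (28.4% of all) had 19.5 and 13.2, and the 68 between these bounds had 23.9 and 12.45. DEHP libraries lay below control libraries at 23 of the 236 (9.75%) for C57BL/6J and at 35 (14.8%) for FVB/N, against 8.55% and 10.2% of all members and 1.42% and 0.859% of all promoters. Among members numbered under 1000 this held for 8 (6.5%) and 6 (4.88%), and among the 68 for 6 (8.82%) and 3 (4.41%). Coding sequence filled a median of 12.3% of the probes numbered 5000 or more, and 0% of those numbered under 1000. Neither the differences between these classes nor the part of coding sequence in them was tested.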
